A study of Mus musculus with 8 samples.

Results

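The 10 genes described here encode transcription factors of endothelial cells and of the shared endothelial and blood lineage, namely Etv2, Fli1 and Erg of the ETS family, Sox7, Sox17 and Sox18 of the SoxF family, the homeodomain factor Hhex, the zinc finger factor Gata2, and the basic helix-loop-helix factors Tal1 and Lyl1. They were taken by name, and all 10 were found among the 24385 features of the table. Of these features, 10018 had a mean of at least 1 FPKM (fragments mapped to a gene, scaled to transcript length and to all mapped fragments) over the 8 libraries and were tested. The tested genes include 8 of the 10 factors, while Erg and Tal1 lay under that level.

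RNA was sequenced from dissected C57BL/6 mouse embryonic hearts at embryonic day 8.5 (E8.5) and E9.5. At each stage 2 libraries were labelled wild type (WT) and 2 were conditional knockouts (cKO) for Dgcr8, which encodes the RNA-binding subunit of the complex that cuts primary microRNA transcripts. According to the methods, the hearts labelled WT were Dgcr8 loxP/loxP with the Rosa26 mT/mG/+ reporter and no Cre, and the cKO hearts carried the same alleles with Mesp1 Cre/+ (Mesp1Cre/+; Dgcr8-/- in the labels). Mesp1 drives Cre in early mesoderm, so deletion is expected in heart muscle, endocardium and vessels but not in endoderm or in maternal tissue. No WT animal carried Cre alone. The comparisons ask how loss of Dgcr8 and the passage from E8.5 to E9.5 changed RNA levels in the heart.

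In the early embryo, endothelial and blood cells arise from common mesodermal progenitors. Etv2 acts at the top of that pathway for a short time, and it switches on genes such as Fli1, Tal1, Gata2 and Lyl1, whose products then maintain the endothelial or blood state with cofactors such as Lmo2. The SoxF factors act in endothelium and endocardium, where they promote arterial and lymphatic fates and vessel integrity. Hhex is made in endothelial progenitors as well as in foregut endoderm and liver, and Gata2 also in trophoblast. In whole-heart RNA, fewer cells of a type and less RNA per cell cannot be told apart.

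The targeted gene and the markers of other tissues were examined in each library first. Dgcr8 stood at 7.10 and 8.60 FPKM in WT and at 1.64 and 4.67 in cKO at E8.5, and at 3.49 and 3.23 in WT and 1.15 and 1.77 in cKO at E9.5, so cKO libraries were lower at both stages and replicate 2 of the E8.5 cKO held the most remaining RNA among them. In the test described below its decrease was not called at either stage (adjusted p 0.590 at E8.5 and 0.317 at E9.5, limma). The summed level of 10 cardiomyocyte genes, such as Myl7 and Tnnt2, was between 24141 and 76082 FPKM, with all 10 detected in all 8 libraries. The 24 endothelial receptor, junction and surface genes were also all detected in every library. Libraries of E8.5 carried RNA of tissues around the heart to unequal degrees. Replicate 2 of the E8.5 cKO stood apart, with 1590 FPKM over 10 trophoblast genes against 23.6 in its partner and 84.4 and 227 in WT, and with 5104 FPKM of the decidual prolactin gene Prl8a2 against 9.95 in its partner, which was in turn below the 449 and 1141 of E8.5 WT. At E9.5 Prl8a2 was at most 5.09 FPKM. Replicate 1 of the E8.5 WT had the highest sum of 13 leukocyte genes, 416 FPKM against 101 in its partner. In E8.5 cKO that sum was 12.5 in replicate 1 and 298 in replicate 2. The gene S100a8 alone gave 306 FPKM in E8.5 WT replicate 1 and 201 in E8.5 cKO replicate 2. The comparisons below that use E8.5 cKO are therefore also given without its replicate 2 where that moved them, with the remaining library assumed to vary like the others. The relative depth of the libraries varied only from 1 to 1.45, but their FPKM totals ran from 884018 to 1944596, with loci shorter than 300 bp taking from 15.7% to 54.5% of them.

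Sox18 had the highest mean level per length of the factors in all 4 groups, with means from 15.2 FPKM (E9.5 WT) to 32.6 FPKM (E8.5 WT). It made up between 24.8% and 45.4% of the summed level of the 10 genes. In E9.5 WT hearts Hhex, Lyl1, Sox7, Fli1, Etv2, Gata2, Sox17, Tal1 and Erg followed in that order. The neighbours Sox18 and Hhex, Hhex and Lyl1, Gata2 and Sox17, and Tal1 and Erg overlapped between libraries there. Erg was the lowest in all 4 groups, at a mean of 0.235 to 0.390 FPKM. By its mean Etv2 took a different place in each group, namely place 4 in E8.5 WT at 8.33 ± 3.69 FPKM (SD, n = 2), 7 in E8.5 cKO at 2.67 ± 2.25, 6 in E9.5 WT at 1.82 ± 0.240, and 9 in E9.5 cKO at 0.405 ± 0.116. Outside E9.5 WT its libraries overlapped those of the neighbours on either side, so those places are not resolved. The summed level of all 10 was 94.4 and 79.3 FPKM in E8.5 WT against 68.8 and 52.7 in E8.5 cKO, then 49.7 and 29.6 in E9.5 WT against 49.6 and 44.5 in E9.5 cKO. E8.5 WT had the highest sums, and at E9.5 both cKO libraries lay inside the WT range.

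**Figure D1:**
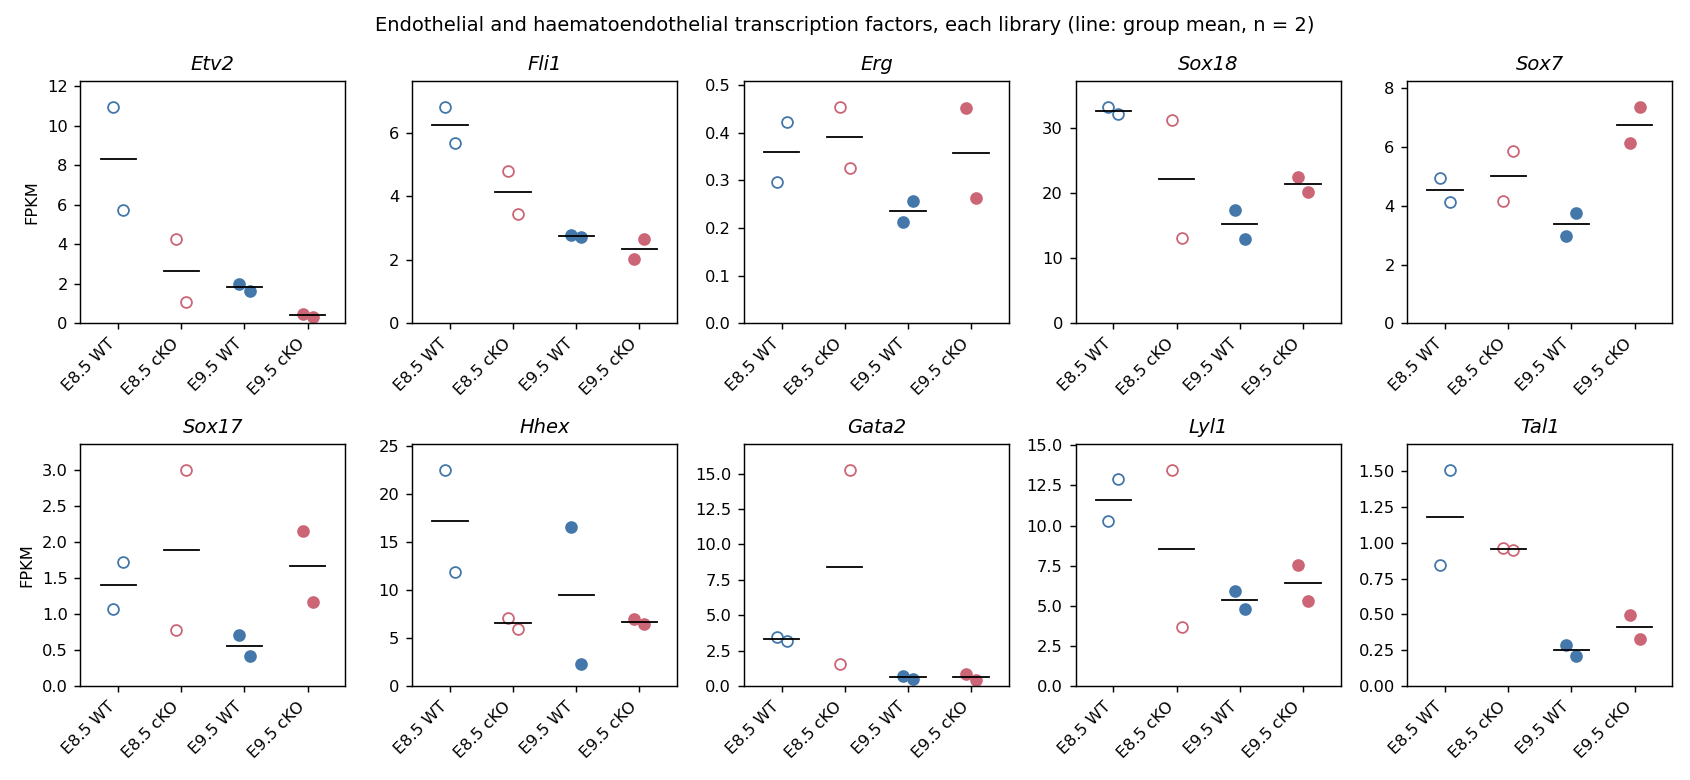
FPKM (vertical axis, from 0, a separate scale for each gene) of the 10 factors in the 8 libraries, WT in blue and cKO in red, open circles at E8.5 and filled circles at E9.5, with a line at the mean of the 2 libraries of a group. Etv2 and Fli1 are highest in E8.5 WT, all 3 SoxF genes have higher values in E9.5 cKO than in E9.5 WT, and in E8.5 cKO Gata2 is at 1.57 in 1 library and 15.3 in the other.

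The proximal promoters of these genes were read for letters that the factors themselves bind. RefSeq windows (GRCm38.p6) were available for Etv2, Erg, Tal1, Lyl1, Hhex and Gata2, with 10 start sites in all, and the 250 bases before each start were searched on both strands. ETS letters were AGGAAG and letters of GATA factors were AGATAA, or TGATAA with another first base. SOX letters were ACAAT as well as ACAAAG. The E-box, bound by basic helix-loop-helix factors, was CANNTG. The ETS letters occurred in 3 of the 10 windows and in 29.5% of 32851 mouse promoter windows, the GATA letters in 2 and in 16.6%, the SOX letters in 2 and in 38.8%, and the E-box in 2 and in 66.2%. The 4 windows with ETS or GATA letters are shown 5′ to 3′ on the strand of the gene, because these are the letters of the ETS and GATA members of the group, with ETS, GATA and SOX matches in capitals. The Erg window belongs to a start inside the gene, and the table gives no value for single start sites.
Etv2, chr7:30635853-30636102, minus strand: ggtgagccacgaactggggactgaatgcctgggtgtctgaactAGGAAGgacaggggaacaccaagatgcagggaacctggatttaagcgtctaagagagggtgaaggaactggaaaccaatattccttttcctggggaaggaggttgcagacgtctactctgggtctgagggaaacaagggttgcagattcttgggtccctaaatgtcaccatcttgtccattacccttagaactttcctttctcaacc
Hhex, chr19:37434591-37434840, plus strand: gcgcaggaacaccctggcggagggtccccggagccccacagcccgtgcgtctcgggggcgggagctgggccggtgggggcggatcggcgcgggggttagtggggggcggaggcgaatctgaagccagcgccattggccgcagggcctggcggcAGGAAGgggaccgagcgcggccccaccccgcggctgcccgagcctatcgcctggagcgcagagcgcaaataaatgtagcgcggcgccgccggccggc
Tal1, chr4:115056176-115056425, plus strand: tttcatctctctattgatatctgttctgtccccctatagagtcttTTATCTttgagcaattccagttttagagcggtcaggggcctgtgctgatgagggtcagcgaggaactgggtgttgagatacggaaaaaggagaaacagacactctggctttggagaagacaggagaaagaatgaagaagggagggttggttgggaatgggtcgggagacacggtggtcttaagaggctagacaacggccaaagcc
Erg, chr16:95459349-95459598, minus strand: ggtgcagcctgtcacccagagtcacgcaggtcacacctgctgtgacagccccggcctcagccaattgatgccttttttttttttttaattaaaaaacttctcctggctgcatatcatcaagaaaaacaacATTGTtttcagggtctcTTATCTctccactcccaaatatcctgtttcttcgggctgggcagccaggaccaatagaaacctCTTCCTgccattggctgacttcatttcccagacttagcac
Etv2 and Hhex each held a single ETS match, AGGAAG on the strand of the gene. The Tal1 window held GATA letters on the other strand (TTATCT), and the Erg window held ETS, GATA and SOX letters, all on the other strand, together with 2 E-boxes. The windows of Gata2 held none of the motifs searched, and that of Lyl1 held SOX letters and an E-box.

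Differences are given as log2 changes of FPKM + 1 with their standard errors. The added 1 understates the change of genes near or under 1 FPKM. A gene was called when its adjusted p was under 0.05 (limma across 10018 genes, Benjamini-Hochberg) and its change at least 1.5-fold. With 2 libraries against 2, an exact permutation test of a single gene cannot go below 0.333 (two-sided), so all p-values rest on the spread that limma shares across genes.

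Etv2, the ETS factor that starts the endothelial and blood programme (chr7:30633616-30635852), had lower values in cKO than in WT at both stages. At E8.5 it stood at 10.9 and 5.72 FPKM in WT and at 4.27 and 1.08 in cKO, and at E9.5 at 1.99 and 1.65 in WT and 0.487 and 0.323 in cKO. WT and cKO libraries did not overlap at either stage, and the highest value in E9.5 cKO was below the lowest in every other group. The log2 change from WT to cKO was -1.44 ± 0.45 (SE) at E8.5, with an adjusted p of 0.590 by limma, and -1.01 ± 0.45 at E9.5, with an adjusted p of 0.328. Neither was called. The direction was the same in every alternative run, and at E9.5 the change was -1.94 with 0.1 added to FPKM instead of 1. Without cKO replicate 2, the library rich in trophoblast RNA, the E8.5 change was -0.77. From E8.5 to E9.5 Etv2 fell in WT by 1.67 ± 0.45 on the log2 scale (adjusted p 0.0227, limma). With libraries scaled by the median ratio it was -0.86 (adjusted p 0.295) and with quantile normalization -0.70 (adjusted p 0.500), so the call was lost under both. It was also lost without the filter on low levels (adjusted p 0.0597) and with any 1 of the 4 WT libraries left out (adjusted p 0.0588 to 0.124). The median of all tested genes was itself at -0.84 in that comparison as deposited. In cKO the change with stage was -1.24 ± 0.45 (adjusted p 0.067, limma) and was not called. It depended on single E8.5 cKO libraries, since it was -1.91 without replicate 2 (adjusted p 0.0309, called) and -0.57 without replicate 1 (adjusted p 0.256), and with 0.1 added it was -2.19 (adjusted p 0.0335, called).

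Fli1 (chr9:32422204-32541452), an ETS factor that Etv2 switches on and that stays on in endothelium and megakaryocytes, had the same order of group means as Etv2. It stood at 6.81 and 5.67 FPKM in E8.5 WT against 4.79 and 3.46 in E8.5 cKO, then 2.78 and 2.71 in E9.5 WT against 2.03 and 2.67 in E9.5 cKO. The cKO libraries lay under the WT libraries at both stages, at E9.5 by a narrow margin. The log2 change from WT to cKO was -0.51 ± 0.25 at E8.5 (adjusted p 0.590, limma) and -0.17 ± 0.25 at E9.5 (adjusted p 0.819, limma). Without cKO replicate 2 the E8.5 change was -0.32. Fli1 fell with stage in WT by 0.95 ± 0.25 (adjusted p 0.0207, limma), which was close to the median of all tested genes. With median-ratio scaling the change was -0.13 and with quantile normalization it was 0.03, so the direction flipped under the latter. Erg (chr16:95359169-95586593), the other ETS factor of mature endothelium, had values from 0.214 to 0.454 FPKM in the 8 libraries. Its groups overlapped except that both E9.5 WT libraries lay under all others, and in the test without the filter on low levels its adjusted p was 0.336 or more in each comparison (limma, 19580 features).

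The SoxF genes had higher values in cKO than in WT at E9.5, without overlap, as did 21% of all tested genes, and none of the 3 was called. Sox7 (chr14:63943706-63950732), an early SoxF gene of haemogenic and vascular endothelium, stood at 2.99 and 3.76 FPKM in E9.5 WT and at 6.14 and 7.35 in E9.5 cKO. These were the highest Sox7 values of the 8 libraries, since E8.5 hearts had 4.94 and 4.11 in WT and 4.17 and 5.85 in cKO. The E9.5 changes of all 3 SoxF genes had the same sign in every alternative run. The log2 change at E9.5 was 0.83 ± 0.25 (unadjusted p 0.0118, adjusted p 0.180, limma), and it lay between 0.70 and 0.95 when each E9.5 library was left out in turn. At E8.5 the change was 0.11 ± 0.25 (adjusted p 0.867, limma), and -0.09 without cKO replicate 2.

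Sox17 (chr1:4490928-4497354), a SoxF factor of arterial endothelium and of endoderm, had 0.710 and 0.419 FPKM in E9.5 WT against 2.16 and 1.17 in E9.5 cKO. The libraries did not overlap, and the log2 change was 0.75 ± 0.40 (adjusted p 0.411, limma), or 0.48 to 1.02 with each E9.5 library left out in turn, the lowest without cKO replicate 1. At E8.5 its values were 1.07 and 1.72 in WT and 0.785 and 3.01 in cKO, with the cKO libraries on either side of WT, and the change of 0.17 ± 0.40 became -0.41 without cKO replicate 2. Sox18 (chr2:181669837-181671640), which acts in blood and lymphatic vessels, had 17.5 and 12.9 FPKM in E9.5 WT against 22.5 and 20.2 in E9.5 cKO, again without overlap, and a log2 change of 0.48 ± 0.39 (adjusted p 0.625, limma), or 0.27 to 0.68 with each E9.5 library left out, the lowest without WT replicate 2. At E8.5 it had 33.2 and 32.1 in WT and 31.2 and 13.1 in cKO. The log2 change there was -0.66 ± 0.39 (adjusted p 0.596, limma) and rested on cKO replicate 2, since it was -0.06 without that library.

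The log2 changes of the SoxF genes from E8.5 to E9.5 were below 0 in WT. In cKO those of Sox17 and Sox18 changed sign with single libraries, and the difference between genotypes did not pass the test for any of the 3. In WT, Sox18 had a log2 change of -1.07 ± 0.39 (adjusted p 0.0522, limma), Sox17 of -0.61 ± 0.40 and Sox7 of -0.34 ± 0.25. In cKO these were 0.07 ± 0.39, -0.03 ± 0.40 and 0.38 ± 0.25. Without E8.5 cKO replicate 2 they were -0.53 for Sox18, 0.55 for Sox17 and 0.58 for Sox7, and without replicate 1 they were 0.67, -0.61 and 0.17. With median-ratio scaling of all 8 libraries the changes of Sox18, Sox17 and Sox7 were -0.09, -0.13 and 0.46 in WT and 0.81, 0.44 and 1.05 in cKO, so the sign for Sox7 in WT flipped. The difference of the cKO effect between stages was 1.14 ± 0.55 for Sox18 (adjusted p 0.725, limma), 0.72 ± 0.36 for Sox7 (adjusted p 0.731) and 0.58 ± 0.57 for Sox17 (adjusted p 0.863). Without E8.5 cKO replicate 2 it was 0.54 for Sox18, 0.92 for Sox7 and 1.16 for Sox17.

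A ratio within a library does not depend on how libraries are scaled. The sum of the 3 SoxF genes divided by Etv2, a ratio chosen after the values were seen and given as a description, was 3.58 and 6.62 in E8.5 WT against 8.48 and 20.3 in E8.5 cKO, then 10.6 and 10.4 in E9.5 WT against 63.3 and 88.9 in E9.5 cKO. It was higher in cKO than in WT at each stage with no overlap. Sox7 divided by Fli1 was 0.725 in both E8.5 WT libraries against 0.870 and 1.69 in E8.5 cKO, then 1.08 and 1.39 in E9.5 WT against 3.02 and 2.76 in E9.5 cKO. Neither ratio was tested, and a ratio does not say which of its genes moved. In E9.5 cKO the SoxF ratio is divided by low Etv2 values, 0.487 and 0.323 FPKM.

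**Figure D2:**
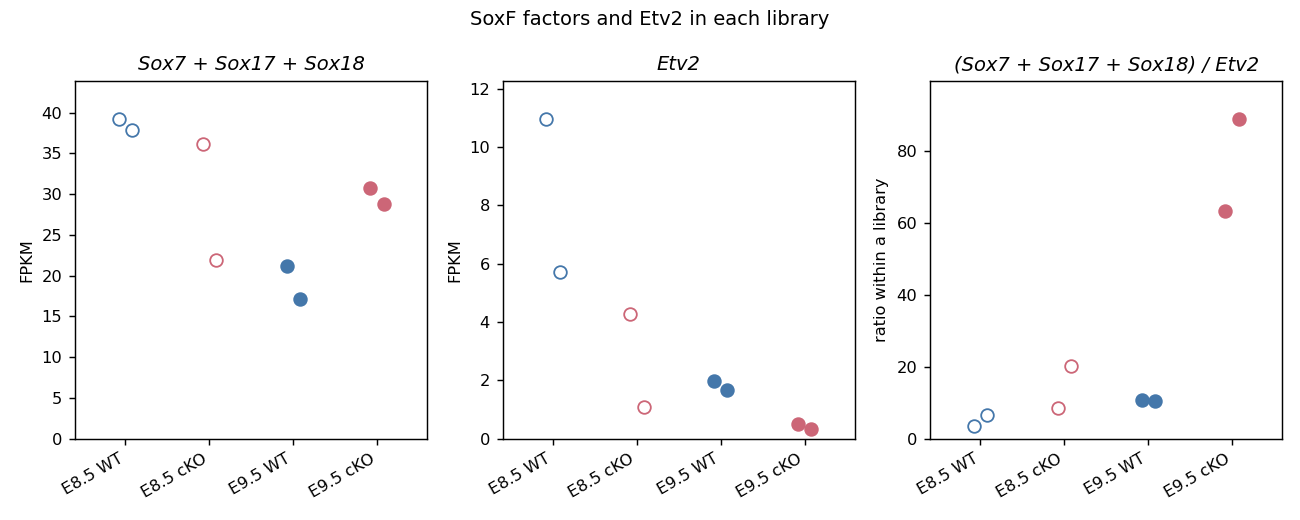
Summed FPKM of Sox7, Sox17 and Sox18 (left), FPKM of Etv2 (middle) and their ratio within a library (right), each on an axis from 0, in the 8 libraries by group, WT in blue and cKO in red, open circles at E8.5 and filled circles at E9.5. The ratio is 63.3 and 88.9 in the E9.5 cKO libraries and at most 20.3 in any other library.

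Hhex (chr19:37434841-37440731) had lower values in cKO than in WT at E8.5, was not called, and was uneven between the E9.5 WT libraries. It stood at 22.6 and 11.9 FPKM in E8.5 WT and at 7.10 and 6.00 in E8.5 cKO, without overlap. The log2 change was -1.21 ± 0.68 (adjusted p 0.596, limma), and -1.10 without cKO replicate 2. At E9.5 it had 16.6 and 2.35 in WT, a 7.08-fold gap, and 6.99 and 6.45 in cKO, which lay between them. The change of 0.01 ± 0.68 at E9.5 became -1.19 without WT replicate 2 and 1.20 without WT replicate 1, so the E9.5 comparison gives no direction for this gene. The endoderm genes Foxa3, Hnf4a and Epcam are given beside it, chosen after their values were seen. Foxa3, an endoderm factor, was at 1.60 and 1.93 FPKM in E8.5 WT and at 5.97 and 1.14 in E9.5 WT. Hnf4a, another endoderm factor, was at 0.844 and 1.42 in E8.5 WT and at 1.51 and 0.676 in E9.5 WT. Epcam, an epithelial surface gene, was at 44.4 and 6.83 in E8.5 WT and at 15.1 and 13.5 in E9.5 WT. Foxa3 and Hnf4a were thus higher in the WT library with more Hhex at E9.5 and lower in it at E8.5, while Epcam was higher in it at both stages, by a small margin at E9.5. The sum of all 15 yolk sac and foregut endoderm genes was 7448 and 5366 FPKM in E9.5 WT and 1076 and 2974 in E8.5 WT, so it was higher with higher Hhex at E9.5 and lower at E8.5. The part of endoderm RNA in the Hhex values was not tested.

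Gata2 (chr6:88198664-88207032), a zinc finger factor of blood stem cells and endothelium, was split between the E8.5 cKO libraries. It stood at 3.44 and 3.21 FPKM in E8.5 WT and at 1.57 and 15.3 in E8.5 cKO. The higher value, in replicate 2, was 9.75-fold that of replicate 1, the widest gap between replicates among the 10 genes. In the same library Tfap2c, a trophoblast factor, was at 26.1 FPKM against 0.417 in its partner, and the prolactin family genes Prl3d1 and Prl2c2 of trophoblast giant cells were at 347 and 694 against 0.466 and 0.593. Of the 10 trophoblast genes 8 were higher in replicate 2 than in replicate 1, Esx1 was lower (0.2998 against 0.861 FPKM), and Prl3b1 was at 0 in both. Those named were chosen after their values were seen. At E9.5 Gata2 had 0.699 and 0.539 FPKM in WT and 0.867 and 0.449 in cKO, with trophoblast sums between 7.64 and 35.1. The log2 change from WT to cKO was 0.58 ± 0.71 at E8.5 (adjusted p 0.745, limma) and -0.75 without replicate 2, so its sign rested on that library, and it was 0.02 ± 0.71 at E9.5. From E8.5 to E9.5 it was -1.42 ± 0.71 in WT (adjusted p 0.119, limma) and -1.97 ± 0.71 in cKO (adjusted p 0.0648, limma), without overlap in either genotype. The cKO value was -0.64 without E8.5 cKO replicate 2 (adjusted p 0.0963) and -3.31 without replicate 1 (adjusted p 0.0013, called). In E8.5 WT the trophoblast sums were 84.4 and 227 FPKM, and Gata2 was slightly lower in the library with the higher sum. The decidual gene Prl8a2 was also highest in E8.5 cKO replicate 2, at 5104 FPKM. The part of trophoblast or decidual RNA in the Gata2 values was not tested.

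**Figure D3:**
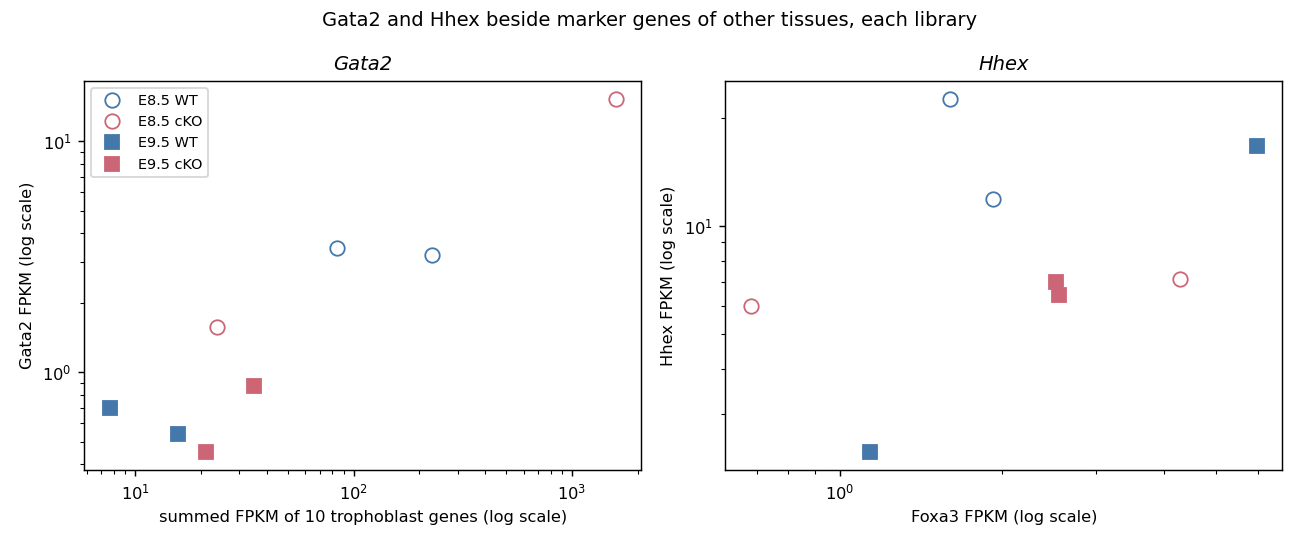
Gata2 FPKM against the summed FPKM of 10 trophoblast genes (left) and Hhex FPKM against Foxa3 FPKM (right), all on log axes, 1 point for each of the 8 libraries, WT in blue and cKO in red, open circles at E8.5 and squares at E9.5. The E8.5 cKO library with 1590 FPKM of trophoblast RNA has the highest Gata2, 15.3, while the E8.5 WT libraries at 84.4 and 227 have 3.44 and 3.21. The E9.5 WT library with the most Foxa3, 5.97, has 16.6 FPKM of Hhex, but the library with the most Hhex, 22.6 in E8.5 WT, has Foxa3 at 1.60.

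The basic helix-loop-helix factors differed in level. Tal1 (chr4:115056426-115071755), which is needed for all embryonic blood and for endocardial identity, had only 0.845 and 1.51 FPKM in E8.5 WT against 0.966 and 0.951 in E8.5 cKO, then 0.289 and 0.210 in E9.5 WT against 0.495 and 0.327 in E9.5 cKO. In both genotypes its E9.5 libraries lay under its E8.5 libraries, and at E9.5 the cKO libraries lay above WT. In the test without the filter, Tal1 fell with stage in WT by 0.78 ± 0.17 (adjusted p 0.0354, limma over 19580 features), and the change in cKO was -0.48 ± 0.17 (adjusted p 0.131). Its log2 change from WT to cKO was -0.14 at E8.5 and 0.17 at E9.5, with adjusted p of 0.811 and 0.884 (limma).

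Lyl1 (chr8:84701457-84704716), the close relative of Tal1 in blood and endothelium, was higher per length than Tal1 in all 8 libraries. It had 10.3 and 12.9 FPKM in E8.5 WT against 13.5 and 3.66 in E8.5 cKO, then 5.94 and 4.79 in E9.5 WT against 7.52 and 5.33 in E9.5 cKO. Genotypes overlapped at both stages. The log2 change at E8.5 was -0.61 ± 0.48 (adjusted p 0.645, limma) but 0.21 without cKO replicate 2, and at E9.5 it was 0.21 ± 0.48. With stage it was -0.98 ± 0.48 in WT (adjusted p 0.116, limma) and -0.16 ± 0.48 in cKO. The cKO value rested on single libraries, being -0.98 without E8.5 cKO replicate 2, equal to that in WT, and 0.66 without replicate 1. The Lyl1 locus overlaps the end of Nfix by a few bases, and Nfix had a mean of 0.0531 FPKM. Gata1, the erythroid GATA factor, was at 6.92 and 12.3 FPKM in E8.5 WT against 16.5 and 3.40 in E8.5 cKO, then 0.873 and 1.11 in E9.5 WT against 4.45 and 2.28 in E9.5 cKO. In E8.5 cKO both Lyl1 and Gata1 were thus higher in replicate 1. The sum of 14 primitive erythroid genes was 9833 and 28257 FPKM in E8.5 WT against 39730 and 16708 in E8.5 cKO, then 16412 and 34183 in E9.5 WT against 45106 and 33349 in E9.5 cKO, all 14 being detected in every library. The part of red cell RNA in the values of Lyl1 and Tal1 was not tested.

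Over the 8 tested factors, none was called between genotypes. At E8.5 limma called 0 of 8 in either direction, against 0.00998% of all tested genes higher and 0% lower. An unadjusted p under 0.05 was found for 1 factor, Etv2, which was lower, beside 756 lower and 26 higher of the 10018 tested genes. The libraries did not overlap for 4 of 8, all lower in cKO (Etv2, Sox18, Fli1 and Hhex), a share to be read against 40.1% of all tested genes lower and 2.54% higher. Their median log2 change was -0.56 beside -0.28 for all tested genes, and without cKO replicate 2 it was -0.37 beside -0.24. At E9.5 limma called 0 of 8, against 0.17% of all tested genes higher and 0.00998% lower. An unadjusted p under 0.05 was found for 1 factor, Sox7, which was higher, beside 528 higher and 1047 lower of the 10018 tested genes. The 3 SoxF genes were higher in cKO without overlap, against 21% of all tested genes, and Etv2 and Fli1 were lower without overlap, against 31.1%. The median log2 change was 0.12 beside -0.07 for all tested genes. In both genotype comparisons the count of called factors was 0 under every alternative run. For the difference of the cKO effect between stages limma called 0 of 8, against 0.0299% of all tested genes called higher and 0.00998% lower. None of the 8 had an unadjusted p under 0.05, beside 570 higher and 149 lower of the 10018 tested genes.

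With stage, limma called 2 of 8 factors in WT, Etv2 and Fli1, both lower at E9.5, against 46.7% of all tested genes lower and 1.4% higher, so the share of factors called was below that of the background. Without the filter on low levels the count was also 2, but the factors called were Fli1 and Tal1, against 16.7% of all features called lower. The count was 0 with any 1 of the 4 WT libraries left out, against 0.279% to 22% of all tested genes called lower, and 5 with either E8.5 cKO library left out, against 58.3%. Leaving out an E8.5 cKO library keeps the WT values and changes the estimates of the spread. For 7 of 8 the E9.5 libraries lay under the E8.5 libraries, against 80.1% of all genes (and 5.43% that lay above). In cKO limma called 0 of 8, against 28.5% of all tested genes called lower and 2.05% higher. With 0.1 added to FPKM it called 2, Etv2 and Gata2, against 28.4% lower. With 1 added, 3 factors had an unadjusted p under 0.05 (Etv2, Fli1 and Gata2, all lower). At that level 4379 of the 10018 tested genes were lower and 330 higher. The libraries did not overlap for these 3 lower factors and for Sox7, which was higher, against 62.7% of all genes lower and 7.05% higher. The median log2 change of the factors was -1.03 in WT beside -0.84 for all tested genes, and -0.10 in cKO beside -0.64. Under median-ratio scaling it was -0.13 in WT and 0.48 in cKO, and under quantile normalization -0.07 and 0.59, so that of cKO changed sign, while the medians of all tested genes were between -0.03 and -0.01. Without E8.5 cKO replicate 2 it was -0.58 in cKO beside -0.68, and 1 factor, Etv2, was called lower, against 23.5% of all tested genes. Without replicate 1 it was -0.14, and 1 factor, Gata2, was called lower, against 27.4%.

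**Figure D4:**
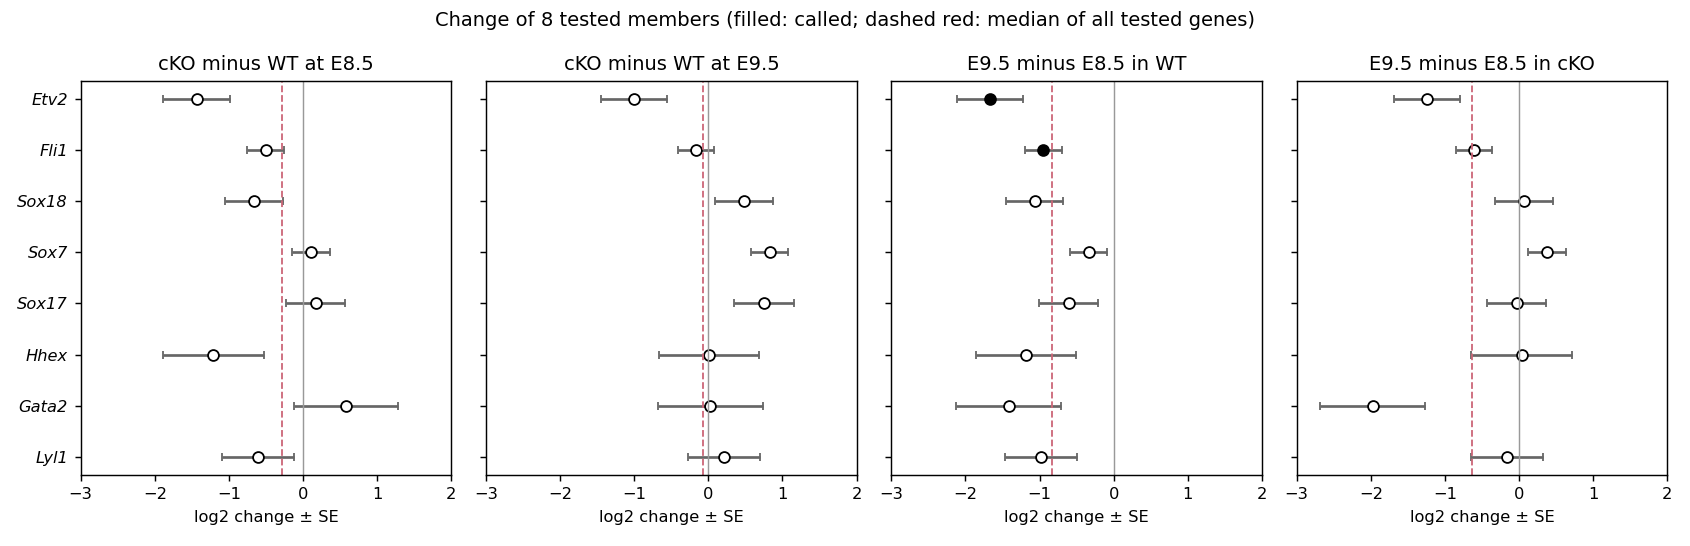
Log2 change of FPKM + 1 with its standard error (horizontal axis) for the 8 tested factors in the 4 comparisons, filled where called. The dashed red line marks the median of all 10018 tested genes, at -0.28, -0.07, -0.84 and -0.64 from left to right, and Etv2 lies to its left in all 4 panels.

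Genes that work with these factors were read as a list of 21 cofactors and other endothelial or blood regulators, of which 14 were tested. Between genotypes limma called 0 of 14 at either stage. At an unadjusted p under 0.05 there were 0 at E8.5 and 1 at E9.5, Ets1, another ETS factor of endothelium, at -0.61 ± 0.25 (adjusted p 0.290). At that level 756 of the 10018 tested genes were lower and 26 higher at E8.5, and 1047 lower and 528 higher at E9.5. The list median was -0.37 at E8.5 and -0.17 at E9.5, beside -0.28 and -0.07 for all tested genes. In WT hearts 8 of 14 were called lower at E9.5 and 0 higher, against 46.7% and 1.4% of all tested genes. The largest changes were in Mef2c, a MADS factor of heart muscle and endothelium (-2.50 ± 0.52), Lmo2, the bridging cofactor of Tal1 and Gata2 (-1.33 ± 0.27), Rbpj, the DNA-binding partner of Notch (-1.21 ± 0.30), and Tcf3, the E protein that pairs with Tal1 and Lyl1 (-1.05 ± 0.30). In cKO hearts, where 28.5% of all tested genes were called lower, 3 of 14 were, namely Mef2c (-1.83 ± 0.52), Rbpj (-1.49 ± 0.30) and Lmo2 (-1.05 ± 0.27). Lmo2 stood at 2.84 and 4.38 FPKM in E8.5 WT against 2.01 and 2.50 in E8.5 cKO, then 1.03 and 0.606 in E9.5 WT against 0.713 and 0.429 in E9.5 cKO, so its highest values were in E8.5 WT, and WT and cKO overlapped at E9.5. Only Rbpj was called lower in cKO without E8.5 cKO replicate 2, against 23.5% of all tested genes. With any 1 of the 4 WT libraries left out 0 to 3 of 14 were called in WT, against 0.279% to 22% of all tested genes lower, and with either E9.5 cKO library left out 0 were called in cKO, against at most 0.00998%. With median-ratio scaling or quantile normalization 0 of 14 were called with stage in either genotype, and the list median in WT was -0.09 or 0.07 in place of -0.83.

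The 24 endothelial receptor, junction and surface genes include many that these factors control, and 20 were tested. Their summed level was 346 and 372 FPKM in E8.5 WT against 421 and 207 in E8.5 cKO, then 263 and 234 in E9.5 WT against 419 and 355 in E9.5 cKO. At E9.5 both cKO sums were above both WT sums, while at E8.5 the cKO sums lay on either side of WT, the lower in replicate 2. Limma called 0 of 20 between genotypes at either stage. At E9.5, 5 had an unadjusted p under 0.05, all higher in cKO, and they are named after their values were seen. They were Pecam1 (1.04 ± 0.27, adjusted p 0.142), Ecscr (1.19 ± 0.44), Esam (0.94 ± 0.31), Mmrn2 (0.89 ± 0.31) and the Notch ligand Dll4 (0.69 ± 0.29). Of the most abundant, Egfl7 had a change of 0.98 ± 0.43, Icam2 of 0.79 ± 0.51 and Eng of 0.38 ± 0.42. The libraries did not overlap for 10 of 20 higher and 2 of 20 lower (21% and 31.1% of all tested genes), and the list median was 0.46 beside -0.07 for all tested genes. At E8.5 the list median was -0.39 beside -0.28, and 2 genes had an unadjusted p under 0.05, both lower (Flt4 and Acvrl1, named for that value). At that level 756 of all 10018 tested genes were lower and 26 higher. With stage, 5 of 20 were called lower in WT, a share below the 46.7% of all tested genes, with the largest changes in Esam (-1.45), Ecscr (-1.40), Dll4 (-1.33) and Plvap (-1.31). In cKO, Tek, the angiopoietin receptor, was called lower (-0.98 ± 0.24) and Eng, a TGF-beta coreceptor, was called higher (1.62 ± 0.42), against 28.5% of all tested genes lower and 2.05% higher. The lower calls did not hold with other scalings, since with median-ratio scaling or quantile normalization 0 of 20 were called lower in either genotype, against 0.27% to 0.739% of all tested genes. Eng was called higher in cKO under both, at 2.37 (adjusted p 0.0202) and 2.34 (adjusted p 0.0312), and in all 3 of 20 and 2 of 20 were called higher there, against 3.56% and 2.58% of all tested genes. Eng was not called with either E9.5 cKO library left out (adjusted p 0.117 without replicate 1 and 0.106 without replicate 2), with only the 4 libraries of the comparison (0.0583) or without the filter (0.0703), and its change was 0.96 without E8.5 cKO replicate 2. In cKO 7 of 20 were called higher without E8.5 cKO replicate 1, against 4.16% of all tested genes. With any 1 of the 4 WT libraries left out 0 to 2 of 20 were called lower in WT, against 0.279% to 22% of all tested genes, and with either E8.5 cKO library left out 8 were, against 58.3%. The list median in WT flipped from -0.53 to 0.31 with median-ratio scaling. That in cKO was 0.19 and flipped to -0.13 without E8.5 cKO replicate 2. At E9.5 the median from WT to cKO was 0.57 after median-ratio scaling and 0.59 after quantile normalization, with 0 called in both. Without E8.5 cKO replicate 2, whose removal keeps the E9.5 values and changes the estimates of the spread, 1 of 20, Ecscr, was called higher in cKO (adjusted p 0.0498), against 0.669% of all tested genes. The E8.5 median flipped to 0.10 without that library.

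Of the other lists, the 4 tested endocardial genes had a median log2 change from WT to cKO of -0.28 at E8.5 and -0.42 at E9.5, the 10 cardiomyocyte genes of 0.21 and 0.52, the 13 tested primitive erythroid genes of -0.12 and 0.88, the 3 tested megakaryocyte genes of -0.40 and 0.45, and the 6 tested leukocyte genes of -1.03 and 0.09. The 12 tested endoderm genes were at 0.90 and 0.01, the 6 tested trophoblast genes at 0.10 and 0.46, and the 3 tested decidual genes at -0.77 and 0. The decidual 0 is that of Prl3c1, which had 0 FPKM in every E9.5 library. Cryab, another of the 3, was at 506 to 704 FPKM in E9.5 libraries. Several E8.5 medians rested on cKO replicate 2. Without it they were -2.01 for the trophoblast genes, -3.17 for the decidual, -2.64 for the leukocyte, 0.68 for the erythroid, 1.65 for the endoderm and -0.14 for the megakaryocyte genes, so the trophoblast and erythroid medians changed sign. The neural list had 1 tested gene, with changes of -0.21 and -0.29, and its sum was at most 3.04 FPKM in any library. As deposited and with all libraries, none of these genes was called between genotypes by limma. Without E8.5 cKO replicate 2 the decidual genes Prl8a2 (-6.03, adjusted p 0.0359) and Prl3c1 (-3.17, adjusted p 0.0392) and the leukocyte gene Lyz2 (-3.16, adjusted p 0.04) were called lower at E8.5, against 0.459% of all tested genes. Itgb3, a platelet and megakaryocyte integrin subunit, had a change of 1.54 ± 0.23 at E9.5 (adjusted p 0.0648) and was called higher in cKO under median-ratio scaling (1.73, adjusted p 0.0194), quantile normalization (1.65, adjusted p 0.0375) and an added 0.1 (2.06, adjusted p 0.0342), and without either E8.5 cKO library (adjusted p 0.0469 and 0.0462), settings in which 0.16% to 0.669% of all tested genes were called higher. An unadjusted p under 0.05 was reached by Hba-a2 at E8.5 and by Itgb3 and Alas2 at E9.5, all higher in cKO, and these 3 are named for that value. Of all 10018 tested genes, 26 were higher at that level at E8.5 and 528 at E9.5.

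The mean centred profile of the tested factors over the 8 libraries was compared with that of every other tested gene. By Euclidean distance on log2(FPKM + 1) the nearest genes were Tjap1 (0.190), Kdm5c (0.215), Psmf1 (0.252), Cenpb (0.257) and Btbd9 (0.257). Tjap1, a tight junction associated protein, stood at 17.5 and 16.0 FPKM in E8.5 WT against 12.0 and 11.0 in E8.5 cKO, then 8.22 and 6.48 in E9.5 WT against 9.77 and 7.56 in E9.5 cKO. The factors themselves lay farther from their own mean profile, from a distance of 0.570 for Fli1 to 2.59 for Gata2, and Etv2 (2.09) and Gata2 were the farthest.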

How the data were processed

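RNA of mouse embryonic hearts was sequenced in 8 libraries after SMARTer or Smart-seq2 amplification on an Illumina HiSeq2500 and aligned with BWA to mm9, per the labels and the study's methods. The FPKM values were computed by the authors and deposited as 1 table of 24930 entries. The program that made the FPKM is not given in the sources used here. The loci in the table lie within 1000 bp of the RefSeq GRCm38 start for 91.7% of 9515 matched tested genes, so coordinates are given as GRCm38. Absolute depth is unknown, and the relative depth of the libraries was read from the lowest values.

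Where a symbol had several entries only that of highest mean level was used, giving 24385 features. Values were taken as log2(FPKM + 1), genes with a mean under 1 FPKM were left out, and limma 3.58.1 in R 4.3.3 was fitted with 4 group means and a trended prior to all 10018 genes and 8 libraries, a fit chosen because the values are FPKM and not counts. The p-values were adjusted over all tested genes by the Benjamini-Hochberg method. The script was tested on simulated data. The 10 factors, the 11 other gene lists and the ratios were chosen with earlier results of these data known. All 10 factors are named. Of other lists, called genes (up to 4, by size of change) or else those with the highest mean level are named, as are the 5 nearest genes and Dgcr8. Further genes of these lists that are named, such as markers beside Hhex, Gata2 and Lyl1 and genes with an unadjusted p under 0.05, were chosen after their values were seen. Alternatives were median-ratio scaling, quantile normalization, rescaling to loci of 300 bp or more, an added 0.1 in place of 1, no filter on low values, only the 4 libraries compared, a replicate block and leaving out each library. The methods call the 2 replicates of a group independent and biological, and do not say how many hearts went into each.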

Additional observations from a re-analysis of the deposited data

How the results depend on the processing

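Between genotypes the number of factors called was 0 under every alternative at both stages. Of the recomputed genotype changes, 64 at each stage left out 1 library and 56 used another setting, and 5 of the former and 0 of the latter reversed at each stage. With stage in WT the number called, 2 as reported, was 0 both after median-ratio scaling and after quantile normalization, against 0.649% and 0.27% of all tested genes called lower. It was 5 with only the 4 libraries of the comparison, against 54.3%. It was 0 without either E8.5 WT library or either E9.5 WT library, which leaves an arm with 1 library assumed to vary like the others, and 5 without either E8.5 cKO library. In cKO it was 2 with 0.1 added to FPKM and between 0 and 1 with 1 library left out. The cause of these moves was not tested.

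Same-numbered replicates did not pair, the correlation of their deviations being between -0.116 and 0.0168 over the 4 comparisons. With a replicate block 3 factors were called with stage in WT, against 45.1% of all tested genes lower, and 1 in cKO (Etv2, adjusted p 0.0433, limma), against 24.4%. A crossed pairing in WT was added after seeing the data and fitted to only the 4 libraries of that comparison. With it 6 factors were called, against 60.2% of all tested genes lower. Those 4 libraries without it gave 5, against 54.3%.

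The median of all tested genes moved from -0.84 to -0.03 with stage in WT, from -0.64 to -0.03 in cKO and from -0.28 to 0.01 between genotypes at E8.5 when libraries were scaled by the median ratio. With that scaling the stage change of Sox7 in WT reversed to 0.46, and those of Sox17 and Lyl1 in cKO to 0.44 and 0.52. With quantile normalization the stage changes reversed to 0.59 for Sox7, 0.12 for Sox17, 0.026 for Fli1 and 0.0075 for Lyl1 in WT, and to 0.55 for Sox17, 0.082 for Fli1 and 0.63 for Lyl1 in cKO. Rescaling to longer loci gave -0.041 for Sox18 and -0.066 for Hhex in cKO with stage, and 0.1 added to FPKM gave 0.032 for Sox17 there. The difference of the cKO effect between stages for Etv2 became -0.026 with median-ratio scaling, -0.022 with quantile normalization and -0.12 with 0.1 added.

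With 1 library left out, changes that reversed ranged, for E8.5 genotype, from -0.092 to 0.31 for Sox7, -0.41 to 0.75 for Sox17, -1.43 to 0.21 for Lyl1 and -0.75 to 1.91 for Gata2. For E9.5 genotype they ranged from -0.0011 to 0.43 for Lyl1, -1.19 to 1.20 for Hhex and -0.16 to 0.21 for Gata2. With stage they ranged from -2.38 to 0.016 for Hhex in WT, and in cKO from -0.61 to 0.55 for Sox17, -0.53 to 0.67 for Sox18, -0.98 to 0.66 for Lyl1 and -0.071 to 0.14 for Hhex. The difference between stages ranged from -0.24 to 1.10 for Etv2, -0.0028 to 1.16 for Sox17 and -1.89 to 0.78 for Gata2. The E8.5 reversals rested on cKO replicate 2, except that Sox17 also reversed without WT replicate 1.

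Depth in reads is unknown, so no counting error can be given for Erg, Tal1 or Etv2 in E9.5 cKO, all below 1 FPKM there. The same holds for Sox17 in E9.5 WT and for Gata2 in every E9.5 library, also below 1 FPKM.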

Other observations

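Between replicates of 1 group the factors differed unevenly. In E8.5 cKO, replicate 1 was 3.94-fold higher for Etv2, 3.68-fold for Lyl1 and 2.39-fold for Sox18, while replicate 2 was 3.83-fold higher for Sox17 and 9.75-fold for Gata2. In E9.5 cKO the same gaps were at most 1.93-fold (Gata2). In E9.5 WT the gap of 7.08-fold for Hhex stood beside 1.03-fold for Fli1 and 1.70-fold or less for the others. Lyl1 divided by Gata1, taken within a library, was 1.49 and 1.05 in E8.5 WT against 0.817 and 1.08 in E8.5 cKO, then 6.80 and 4.31 in E9.5 WT against 1.69 and 2.34 in E9.5 cKO, so at E9.5 both WT libraries were above both cKO libraries.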
